A study of Mus musculus with 9 samples.

Results

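The genes described here are 10 that sebaceous glands use to make or package their lipids: Elovl3, Scd1, Scd3, Awat1, Awat2, Soat1, Mgst1, Far2, Plin2 and Mc5r. They were taken by name from the 49585 genes of each deposited table, and each name matched 1 gene. RNA from whole mouse skin was sequenced in 9 libraries, 3 in each of 3 groups. The first carries the label IL-6 KO (C57BL/6 strain, genotype IL-6 -/-) and is called by that label throughout, the second is wild type BALB/c, and the third is wild type C57BL/6, which the study's design text names as the control. The mice were bought at an age of 4 to 5 weeks and had 2 weeks to settle, and their given age at the start was 6 weeks. Their fur was shaved off on day 0. They then went 7 days without treatment, and skin was taken on day 8. The protocol counts 6 IL-6 KO, 3 BALB/c and 3 C57BL/6 mice, and no label ties a library to 1 mouse, so that p-values measure the spread between libraries, which may be technical. Neither the knockout allele nor the sex of the mice is given in the sources used here.

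Sebaceous glands are attached to hair follicles. Their cells, the sebocytes, fill with lipid droplets and then burst, releasing an oily mixture (sebum) of wax esters, sterol esters and triglycerides onto the hair and skin. Fatty acids are lengthened by elongases and given a double bond by desaturases, some are reduced to fatty alcohols, and acyltransferases join alcohols or cholesterol to fatty acids to make the esters. In mice, loss of Scd1 shrinks the glands, and loss of Mc5r, a receptor for melanocortin peptides, lowers the lipid output of the skin.

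Total exon reads per library were 3843953, 4476346 and 4414818 for IL-6 KO, 6242332, 6115739 and 6152688 for BALB/c, and 6882193, 6530963 and 6083876 for C57BL/6. Il6 itself had 6, 24 and 1 exon reads in the IL-6 KO libraries, against 0, 2 and 0 in BALB/c and 2, 1 and 0 in C57BL/6. The gene's reads were thus not lower under the knockout label, and since the tables count reads per gene and the altered exons are not given, they do not check it. BALB/c replicate 2 held 130 reads of Xist, a transcript of the inactive X chromosome, against at most 5 in each other library. The labelled tissue was checked against 8 epidermis markers, keratin genes among them, whose summed level was 8386 CPM or more in each library (CPM, reads scaled to a common library total with TMM factors), with none at 0.

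All 10 genes passed the filter on low counts. Mc5r passed through the IL-6 KO libraries and BALB/c, since its C57BL/6 libraries held 8, 6 and 0 reads. In IL-6 KO against C57BL/6 skin, Elovl3 and Soat1 were higher and Scd3 was lower, 3 of the 10 genes called at an adjusted p under 0.05 by edgeR's quasi-likelihood F test, where 35.2% of all 14415 tested genes were called (19.2% higher, 16.0% lower). In IL-6 KO against BALB/c skin, Elovl3 was higher and Scd3 and Far2 were lower, again 3 of 10, against 37.3% of all tested genes (19.9% higher, 17.4% lower). Between the wild type strains, Elovl3 and Scd3 were higher in BALB/c than in C57BL/6 skin and 0 genes were lower, 2 of 10, against 3.41% of all tested genes (1.63% higher, 1.78% lower). At an unadjusted p under 0.05, 5 of the 10 were higher and 0 lower, against 19.3% of all tested genes (9.35% higher), and DESeq2 called 4 higher and 0 lower, against 7.18% of its 14397 genes (3.47% higher, 3.70% lower). Mc5r was among those 5 and those 4 genes, and given how it passed the filter it adds no support to these counts. The shares of the 10 genes called in the comparisons of the IL-6 KO label were near those of all genes. The comparisons share libraries and are not independent of each other.

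**Figure D1:**
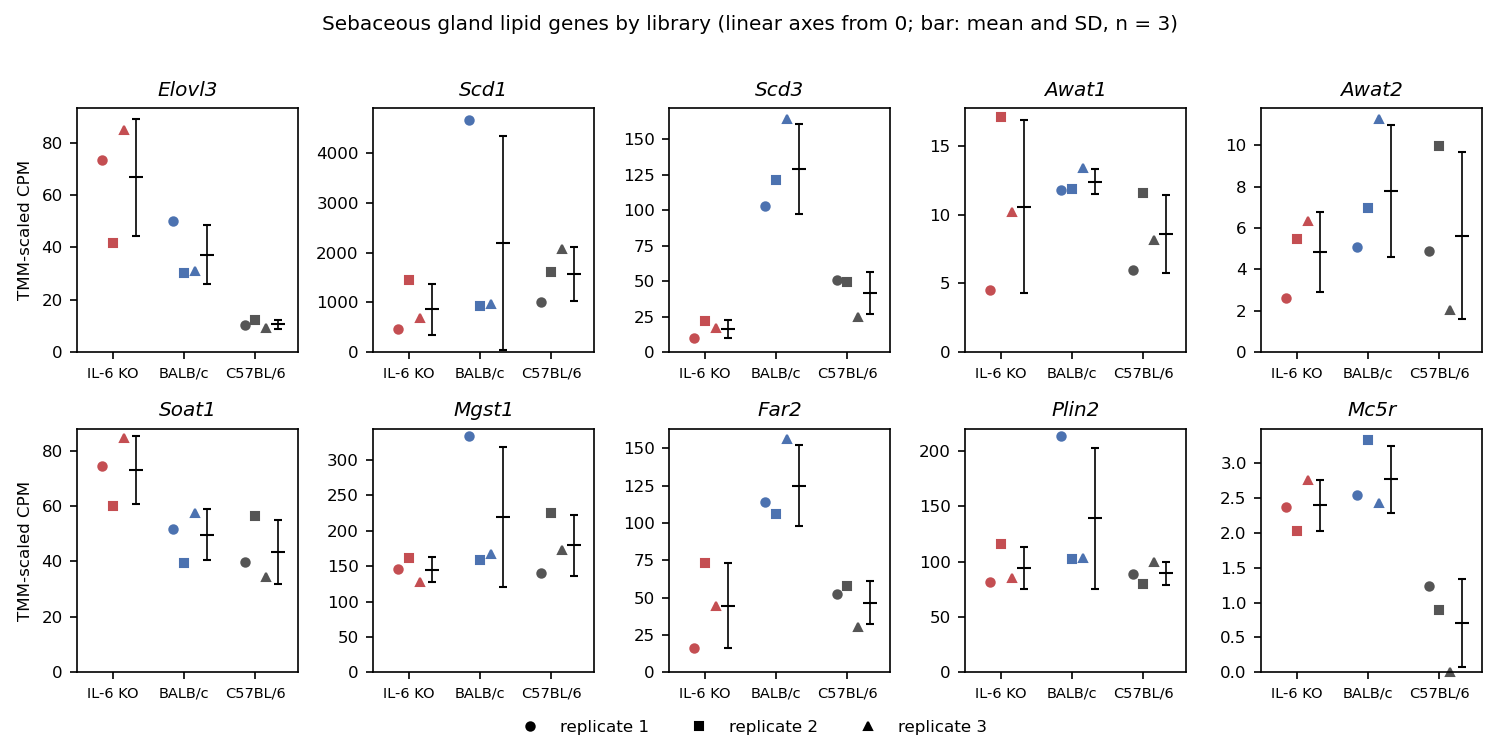
Level of each of the 10 genes in each library, in TMM-scaled CPM on linear axes from 0, for IL-6 KO, BALB/c and C57BL/6 skin from left to right; symbols give the replicate, and black bars give the group mean and SD (3 libraries each). Elovl3 runs from 41.9 to 84.9 CPM in IL-6 KO, from 30.4 to 50.2 CPM in BALB/c and from 9.08 to 12.2 CPM in C57BL/6 skin. In Scd3 and Far2, every BALB/c library lies above those of the other groups. In Scd1, 1 BALB/c library stands far above the others.

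The fold changes of the 10 genes did not run one way across the comparisons. Their median log2 fold change was 0.01 in IL-6 KO against C57BL/6, beside 0.01 over all tested genes, with 5 genes above 0 and 5 below. In IL-6 KO against BALB/c the median was -0.58, beside 0.01 over all tested genes, with 2 genes above 0 and 8 below. The median was 0.58 in BALB/c against C57BL/6, beside -0.01 over all tested genes, and all 10 fold changes were above 0. Without BALB/c replicate 1, Scd1 was -0.71 and Mgst1 -0.13 in this comparison, and Plin2 fell from 0.64 to 0.21. Those of Scd3, Far2, Awat1, Awat2 and Mc5r did not fall. Libraries of the compared groups did not overlap for 4 of the 10 genes in IL-6 KO against C57BL/6 (47.5% of all tested genes), for 3 in IL-6 KO against BALB/c (50.7%) and for 6 in BALB/c against C57BL/6 (30.2%). Mc5r is among the 4 and among the 6. It passed the filter through the groups where it is higher, so it adds no support to these counts.

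**Figure D2:**
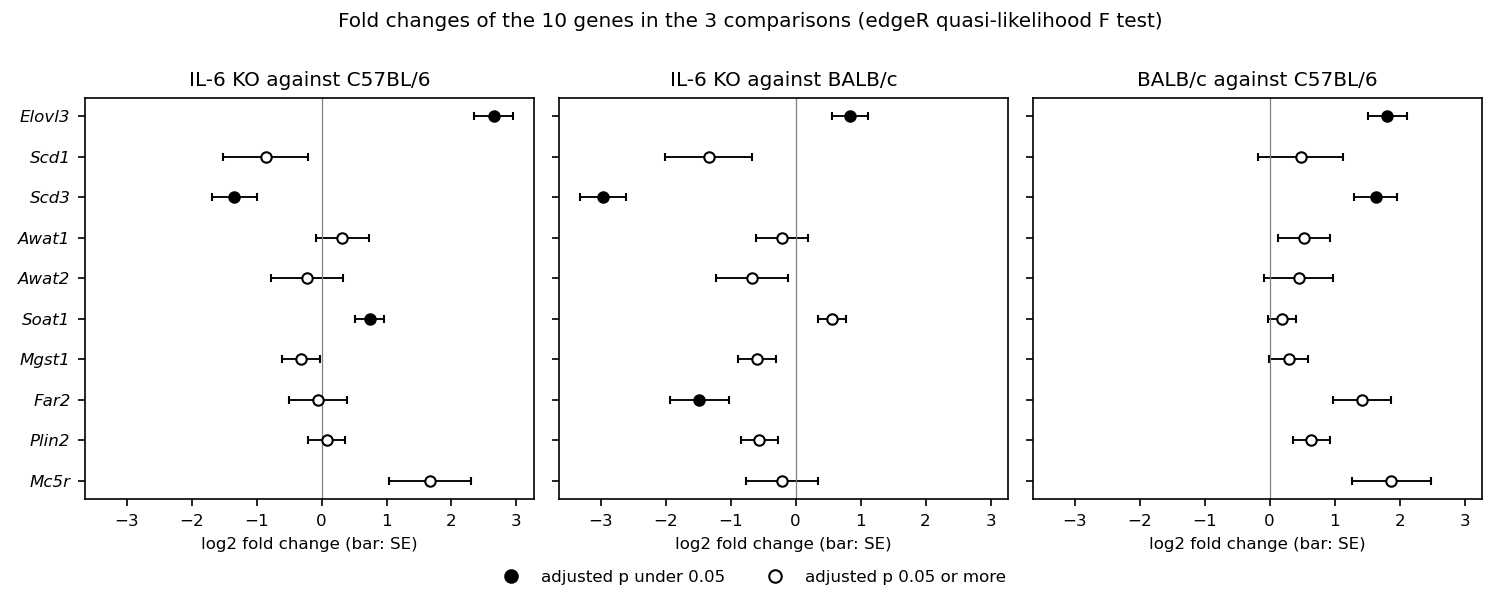
Log2 fold change of the 10 genes (x axis, with bars of 1 SE) in the 3 comparisons, from edgeR's quasi-likelihood fit of all 9 libraries; filled points have an adjusted p under 0.05 over all tested genes. Elovl3 lies right of 0 in each panel, and Scd3 lies left of 0 in both panels of IL-6 KO and right of 0 in BALB/c against C57BL/6.

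Promoter windows were read for the genes with a RefSeq entry in the table used here, 7 of the 10 with 9 windows in all. Each holds 250 bases before and 50 bases after a RefSeq start, from which positions are counted. The windows of Scd3, Far2 and Soat1 are shown because these are the called genes with an entry. In Scd3 and Far2, every BALB/c library lay above every library of the other groups. The Scd3 window is at chr19:44203038-44203337 (plus strand), that of Far2 at chr6:148047166-148047465 (plus strand) and that of Soat1 at chr1:156474279-156474578 (minus strand), all on GRCm38.p6, and capitals mark a CCAAT box. The RefSeq start of Far2 lies inside the gene as the deposited tables bound it. So do the starts of both Mgst1 windows and of the Awat2 window at chrX:100412538-100412837 (minus strand).
Scd3: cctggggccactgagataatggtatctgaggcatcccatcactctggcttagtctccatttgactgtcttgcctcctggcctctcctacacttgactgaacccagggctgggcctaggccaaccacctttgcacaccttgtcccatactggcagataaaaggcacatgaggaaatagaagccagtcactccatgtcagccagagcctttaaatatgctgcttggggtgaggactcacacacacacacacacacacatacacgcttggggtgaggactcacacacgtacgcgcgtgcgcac
Far2: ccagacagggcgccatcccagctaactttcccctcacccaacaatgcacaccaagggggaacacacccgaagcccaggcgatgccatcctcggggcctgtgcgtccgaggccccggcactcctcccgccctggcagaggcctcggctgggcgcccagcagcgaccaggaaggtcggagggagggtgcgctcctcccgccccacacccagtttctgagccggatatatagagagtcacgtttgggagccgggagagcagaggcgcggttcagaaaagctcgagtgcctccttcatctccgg
Soat1: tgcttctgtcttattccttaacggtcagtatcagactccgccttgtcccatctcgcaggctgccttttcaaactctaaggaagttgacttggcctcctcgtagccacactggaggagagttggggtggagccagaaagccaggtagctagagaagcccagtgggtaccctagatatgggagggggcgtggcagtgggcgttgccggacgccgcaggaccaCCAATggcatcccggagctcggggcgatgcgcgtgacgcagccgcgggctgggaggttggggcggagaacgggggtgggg
The motifs searched, on both strands, were the CCAAT box (CCAAT), the TATA box (TATAAA), the nuclear receptor half-site (AGGTCA), the direct repeat of that half-site that PPAR and RXR receptors bind, in which the half-site also matches, and the E-box (CACGTG). The Scd3 and Far2 windows held none of these letters. The Soat1 window held a CCAAT box 30 bases before the RefSeq start, a motif present in 37.4% of all 32851 windows of this length. The Plin2 window held a CCAAT box at -73, an E-box at -4 (7.15% of all windows) and, on the opposite strand, a half-site at -218 (16.3%). The Awat2 windows held a CCAAT box at -85 and, in the window whose start lies inside the gene, at -121 on the opposite strand. The Awat1 window held one at 43 on the opposite strand. Neither Mgst1 window held any of the motifs.

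Elovl3 elongates saturated and monounsaturated fatty acids and in mouse skin is made by sebocytes and hair follicle cells (chr19:46131897-46135307, plus strand, GRCm38). It had 73.6, 41.9 and 84.9 CPM in the IL-6 KO libraries, against 50.2, 30.4 and 31.2 CPM in BALB/c and 10.4, 12.2 and 9.08 CPM in C57BL/6. All 6 libraries of the other groups lay above the highest C57BL/6 library, while IL-6 KO replicate 2 lay within the BALB/c range. Elovl3 was thus 6.28-fold higher in IL-6 KO than in C57BL/6 skin (log2 fold change 2.65 ± 0.304 SE, adjusted p = 0.000522). The same difference was 1.79-fold against BALB/c (0.84 ± 0.279, adjusted p = 0.0403). Between the wild type strains it was 3.51-fold, BALB/c over C57BL/6 (1.81 ± 0.300, adjusted p = 0.0129). In bulk skin, a larger number of sebocytes or hair follicle cells and more Elovl3 RNA per cell cannot be told apart. The call against C57BL/6 held in all 18 alternatives. The call of BALB/c against C57BL/6 held in 16 and ended when C57BL/6 replicate 1 or 3 was left out (adjusted p up to 0.0603). That of IL-6 KO against BALB/c held in 10. It was lost when any single C57BL/6 library, IL-6 KO replicate 1 or 3 or BALB/c replicate 2 or 3 was left out (adjusted p up to 0.156), and when the fit held no C57BL/6 library.

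The hair shaft markers were higher in IL-6 KO skin, as Elovl3 was, but not between the wild type strains. These 10 genes include the hair keratins Krt31, Krt35 and Krt86 and the matrix factors Msx2, Hoxc13, Lef1 and Foxn1. Beside 19.2% (against C57BL/6) and 19.9% (against BALB/c) of all tested genes, all 10 were called higher in IL-6 KO skin. Their summed level was 11067, 2197 and 8441 CPM in IL-6 KO replicates 1 to 3, against 14.6 to 24.5 CPM in BALB/c and 22.8 to 90.8 CPM in C57BL/6, with Krt81 at 0 in all BALB/c libraries. Elovl3 in IL-6 KO replicate 2 was 0.528 of the mean of replicates 1 and 3, and the hair shaft genes were 0.210 to 0.339 of it. Elovl3 was also higher in BALB/c than in C57BL/6 skin, where edgeR called 0 of the 10 hair shaft markers in either direction, with 0 higher and 5 lower at an unadjusted p under 0.05 and 0 higher and 2 lower by DESeq2. The part of hair follicle content in the Elovl3 difference of IL-6 KO skin was not tested.

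**Figure D3:**
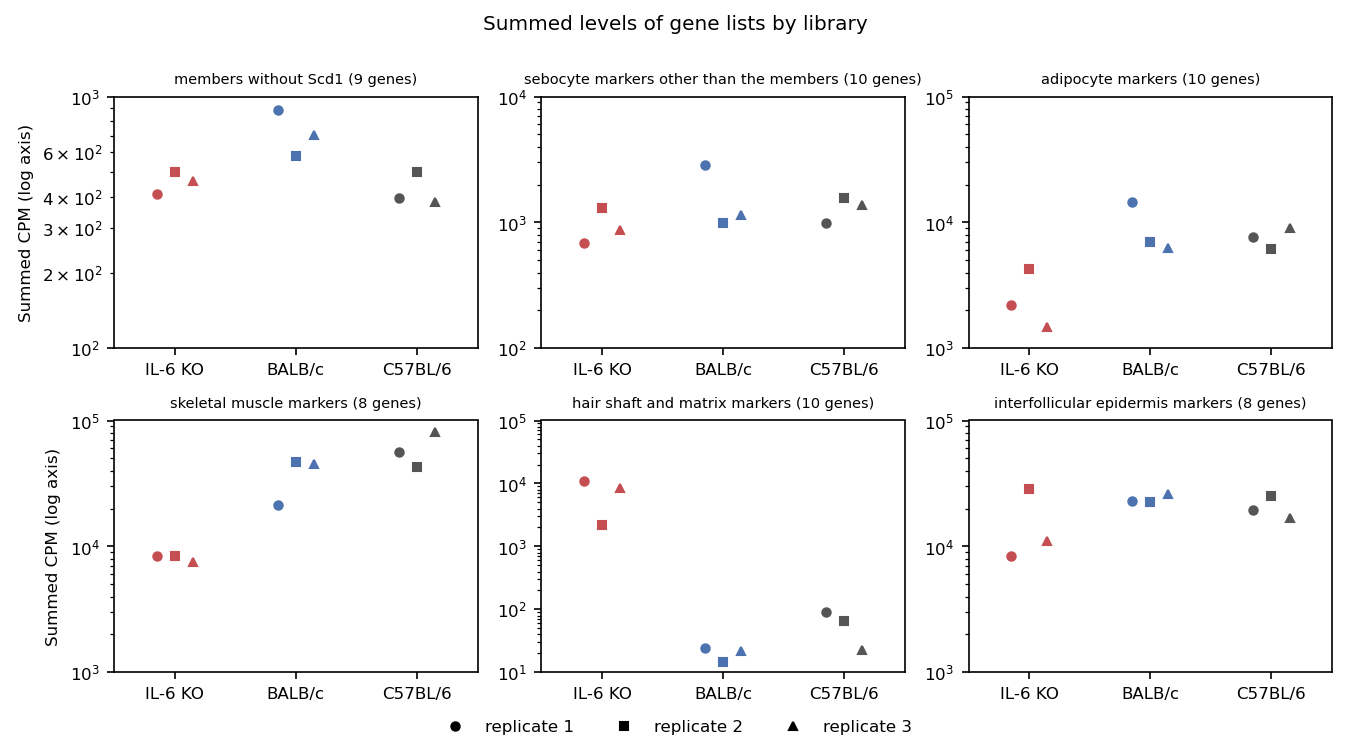
Summed TMM-scaled CPM of 6 gene lists in each library (log axes), for IL-6 KO, BALB/c and C57BL/6 skin from left to right; symbols give the replicate. The 9 genes other than Scd1 sum to 411 to 500 CPM in IL-6 KO, 579 to 884 CPM in BALB/c and 381 to 503 CPM in C57BL/6 skin. This sum has a narrower spread than the adipocyte, muscle and hair shaft lists, but opposite changes of single genes can cancel in it. With Scd1, which is not drawn, the 10 genes sum to 878 to 1944 CPM in IL-6 KO, 1509 to 5546 CPM in BALB/c and 1403 to 2457 CPM in C57BL/6.

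Scd1 and Scd3 put the double bond into saturated fatty acids, Scd1 in sebocytes and also in fat cells. Scd1 (chr19:44394451-44407709, minus strand) had 468, 1444 and 678 CPM in the IL-6 KO libraries, 4661, 930 and 970 CPM in BALB/c, and 1008, 1616 and 2076 CPM in C57BL/6. The 3 groups overlapped, and BALB/c replicate 1 stood apart. No Scd1 difference was called: -0.86 ± 0.658 for IL-6 KO against C57BL/6 (adjusted p = 0.335), -1.34 ± 0.665 for IL-6 KO against BALB/c (0.139) and 0.48 ± 0.655 for BALB/c against C57BL/6 (0.734). Without BALB/c replicate 1 the last of these was -0.71, so its direction rested on that library.

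Scd3 (chr19:44203288-44244016, plus strand), whose product is known in mice from skin and Harderian gland, gave the largest fold change of the 10 genes. It had 9.76, 22.1 and 17.2 CPM in the IL-6 KO libraries, 103, 121 and 164 CPM in BALB/c, and 51.1, 49.1 and 24.8 CPM in C57BL/6. The 3 groups did not overlap. Scd3 was 7.82-fold lower in IL-6 KO than in BALB/c skin (-2.97 ± 0.355, adjusted p = 0.000531), a call that held in all 18 alternatives. It was 2.53-fold lower in IL-6 KO than in C57BL/6 skin (-1.34 ± 0.347, adjusted p = 0.0157), a call lost without C57BL/6 replicate 1 or IL-6 KO replicate 1 or 3 (adjusted p up to 0.0549). In BALB/c it was 3.09-fold higher than in C57BL/6 (1.63 ± 0.328, adjusted p = 0.0312). That last call was lost when any single BALB/c or C57BL/6 library or IL-6 KO replicate 3 was left out (adjusted p up to 0.120).

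Scd1 and Scd3 transcripts are 91.358% identical over 1053 aligned bases, and Scd1 and Scd2 94.712% over 624, so reads in these stretches could be split between the genes. The deposited unique reads, which map to 1 place, made up 97.3% to 100% of Scd3 reads and 99.4% to 99.6% of Scd1 reads in every library. The same 3 calls of Scd3 were made on unique reads.

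The makeup of the desaturase reads differed between the groups. Scd2, a desaturase made in many tissues, averaged 467 ± 193 CPM in IL-6 KO, 134 ± 4.76 CPM in BALB/c and 153 ± 19.9 CPM in C57BL/6 skin (SD, 3 libraries each). It was called higher in IL-6 KO against BALB/c (1.80 ± 0.296, adjusted p = 0.00191) and also against C57BL/6. Scd2 made up 55.7%, 14.3% and 44.4% of Scd1 to Scd4 reads in IL-6 KO replicates 1 to 3, against 2.63% to 11.6% in BALB/c and 5.82% to 13.3% in C57BL/6. All 3 IL-6 KO libraries lay above the others, IL-6 KO replicate 2 by little. Scd3 made up 0.906% to 1.37% in IL-6 KO, 2.10% to 12.9% in BALB/c and 1.11% to 4.18% in C57BL/6. Scd4 had at most 8 reads in any library.

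**Figure D4:**
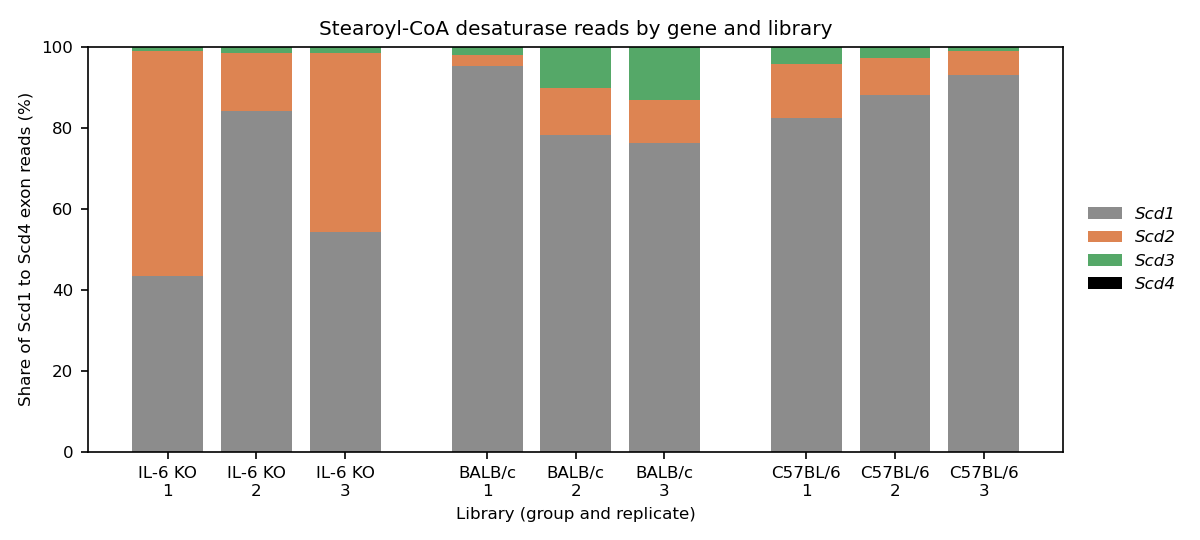
Share of the exon reads of Scd1, Scd2, Scd3 and Scd4 held by each gene (y axis, percent) in each library, for IL-6 KO, BALB/c and C57BL/6 skin from left to right. Scd2 takes 55.7% and 44.4% in IL-6 KO replicates 1 and 3, and Scd3 takes 10.2% and 12.9% in BALB/c replicates 2 and 3.

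Far2, Awat1 and Awat2 act in wax ester synthesis: Far2 reduces fatty acyl-CoA to fatty alcohols, and Awat1 and Awat2 join those alcohols to fatty acids. Far2 (chr6:148047259-148182758, plus strand) had 16.1, 73.3 and 44.5 CPM in the IL-6 KO libraries, 114, 106 and 156 CPM in BALB/c, and 52.2, 57.7 and 30.2 CPM in C57BL/6. Every BALB/c library lay above every library of the other groups, which overlapped each other. Far2 was 2.79-fold lower in IL-6 KO than in BALB/c skin (-1.48 ± 0.448, adjusted p = 0.0281), a call lost without IL-6 KO replicate 3 or BALB/c replicate 3 and when C57BL/6 was left out of the fit (adjusted p up to 0.0862). Its difference from C57BL/6 was -0.06 ± 0.446 in IL-6 KO (adjusted p = 0.933) and 1.42 ± 0.444 in BALB/c (0.125). The last value missed the threshold, although DESeq2 called it, as did edgeR on BALB/c and C57BL/6 libraries alone or without IL-6 KO replicate 1 or 2.

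The end of Far2 overlaps that of Ergic2, a gene of the early secretory pathway on the opposite strand, and their transcripts share 754 bases. Whether the counting used strand is not given in the sources used here, so reads from the shared stretch cannot be assigned. Unique reads were 91.4% to 98.6% of Far2 reads. Ergic2 averaged 42.5 ± 0.792 CPM in IL-6 KO, 50.9 ± 5.06 CPM in BALB/c and 49.4 ± 2.04 CPM in C57BL/6 skin (SD, 3 libraries each). The part of Ergic2 reads in the Far2 levels was not tested.

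Awat1 (chrX:100572251-100578205, plus strand) had 4.49, 17.1 and 10.2 CPM in the IL-6 KO libraries, 11.8, 11.9 and 13.4 CPM in BALB/c, and 5.98, 11.6 and 8.15 CPM in C57BL/6. Awat2 (chrX:100402221-100442717, minus strand) had 2.64, 5.49 and 6.35 CPM in the IL-6 KO libraries, 5.08, 6.97 and 11.3 CPM in BALB/c, and 4.91, 9.97 and 2.04 CPM in C57BL/6. BALB/c lay just above C57BL/6 without overlap for Awat1, and all groups overlapped for Awat2. The 6 differences lay between -0.67 and 0.53 on the log2 scale with SEs of 0.404 to 0.557, and adjusted p-values of 0.360 or more. Awat2 rested on 10 to 70 reads and Awat1 on 17 to 84 reads per library. Far2 and Awat1 were lowest in IL-6 KO replicate 1 and highest, within that group, in replicate 2.

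Soat1 joins cholesterol to fatty acids (chr1:156424525-156474331, minus strand). It had 74.4, 60.1 and 84.5 CPM in the IL-6 KO libraries, 51.8, 39.5 and 57.5 CPM in BALB/c, and 39.9, 56.4 and 34.3 CPM in C57BL/6. The libraries labelled IL-6 KO lay above all others, and the wild type strains overlapped. Soat1 was 1.67-fold higher in IL-6 KO than in C57BL/6 skin (0.74 ± 0.219, adjusted p = 0.0263), a call lost when replicate 1 or 3 of either group was left out (adjusted p up to 0.101). Against BALB/c it was 0.56 ± 0.218 (adjusted p = 0.0704), and BALB/c against C57BL/6 was 0.19 ± 0.218 (0.691).

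Mgst1, a glutathione transferase of cell membranes that is abundant in sebocytes, and Plin2, which coats lipid droplets in many cell types, were alike across the libraries. Mgst1 (chr6:138140316-138156755, plus strand) had 146, 162 and 127 CPM in the IL-6 KO libraries, 333, 158 and 167 CPM in BALB/c, and 140, 225 and 173 CPM in C57BL/6. Plin2 (chr4:86648386-86670060, minus strand) had 81.3, 116 and 85.2 CPM in the IL-6 KO libraries, 213, 102 and 103 CPM in BALB/c, and 88.5, 79.8 and 99.7 CPM in C57BL/6. Both were highest in BALB/c replicate 1. No difference was called for either gene, and their 6 log2 fold changes lay between -0.60 and 0.64 with adjusted p-values of 0.137 or more. Without BALB/c replicate 1, Mgst1 in BALB/c against C57BL/6 was -0.13 in place of 0.29 ± 0.293, and Plin2 was 0.21 in place of 0.64 ± 0.283.

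BALB/c replicate 1 also differed from its group in fat cell genes. There Scd1 was 4.91 times, Plin2 2.07 times and Mgst1 2.05 times the mean of BALB/c replicates 2 and 3. All 10 adipocyte markers were above that mean, by 1.37 times (Car3) to 7.82 times (Adrb3), and their sum was 14660 CPM against 6960 and 6270 CPM in replicates 2 and 3. Elovl3 was 1.63 times and Scd3, Far2, Awat1 and Awat2 were 0.556 to 0.926 times the same mean. Adipocyte markers summed to 1479 to 4287 CPM in IL-6 KO, 6270 to 14660 CPM in BALB/c and 6141 to 8971 CPM in C57BL/6, with none at 0. Of these 10 genes, 0 were higher and 1 lower in IL-6 KO than in C57BL/6 skin (0 and 3 both unadjusted and by DESeq2), and 0 higher and 4 lower than in BALB/c (0 and 8 unadjusted, 0 and 7 by DESeq2). Of all tested genes, 45.9% had an unadjusted p under 0.05 in IL-6 KO against C57BL/6 (24.3% higher, 21.6% lower), and DESeq2 called 37.6% (20.2% higher, 17.4% lower). In IL-6 KO against BALB/c these shares were 47.8% (25.0% higher, 22.8% lower) and 39.6% (20.5% higher, 19.1% lower). Skeletal muscle markers summed to 7468 to 8411 CPM in IL-6 KO, 21415 to 47058 CPM in BALB/c and 42863 to 81443 CPM in C57BL/6, and of these 8 genes 0 were higher and 8 lower in IL-6 KO than in C57BL/6 skin, 0 higher and 7 lower than in BALB/c, and 0 higher and 1 lower in BALB/c than in C57BL/6. The part of fat and muscle content in the differences of Scd1, Mgst1 and Plin2 was not tested.

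Mc5r (chr18:68337603-68339711, plus strand), the receptor through which melanocortin peptides act on sebaceous glands in mice, was the least read of the 10 genes. It had 9, 10 and 13 reads in the IL-6 KO libraries (2.37, 2.03 and 2.75 CPM), 16, 20 and 15 reads in BALB/c (2.54, 3.32 and 2.43 CPM), and 8, 6 and 0 reads in C57BL/6 (1.23, 0.893 and 0 CPM). A count of 0 allows up to 0.556 CPM in that library, counting error only. All 6 IL-6 KO and BALB/c libraries lay above the C57BL/6 ones. The log2 fold change was 1.67 ± 0.634 for IL-6 KO against C57BL/6 (adjusted p = 0.0674), -0.21 ± 0.548 for IL-6 KO against BALB/c (0.788) and 1.87 ± 0.608 for BALB/c against C57BL/6 (0.137). DESeq2 called both differences from C57BL/6 (adjusted p = 0.0297 in IL-6 KO and 0.0407 in BALB/c), and edgeR called neither in any of its settings.

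Per base of exon, the order of the 10 genes was led by Scd1 and then Mgst1 in each group. Levels in RPKM (the scaled CPM divided by the exon length in kilobases) were 178 ± 106 in IL-6 KO, 452 ± 443 in BALB/c and 324 ± 111 in C57BL/6 skin for Scd1 (SD, 3 libraries each). For Mgst1 they were 72.1 ± 8.67 in IL-6 KO, 109 ± 49.0 in BALB/c and 89.1 ± 21.2 in C57BL/6 skin. The libraries of Scd1 and Mgst1 did not overlap within any group. Elovl3 was the third in IL-6 KO skin with 44.7 ± 15.0 RPKM, overlapping Plin2 below it. In BALB/c it was the fifth with 24.9 ± 7.50 RPKM, overlapping Scd3 above and Far2 below. In C57BL/6 it was the sixth with 7.08 ± 1.05 RPKM, overlapping Far2 above and Awat1 below. Scd3 was the eighth in IL-6 KO skin with 4.71 ± 1.80 RPKM, but the fourth in BALB/c with 37.2 ± 9.16 RPKM and in C57BL/6 with 12.0 ± 4.21 RPKM. Awat2 and Mc5r were at the low end of each group, Mc5r with 2.05 ± 0.311 RPKM in IL-6 KO, 2.38 ± 0.417 RPKM in BALB/c and 0.608 ± 0.546 RPKM in C57BL/6 skin.

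Likeness between genes was measured as the root mean square difference of their log2 CPM, each centred on its own mean over the 9 libraries. Among the 10 genes, Mgst1 and Plin2 were the closest pair (0.28), followed by Awat1 and Plin2 (0.53) and Awat1 and Awat2 (0.55). The desaturases Scd1 and Scd3 were 1.24 apart, Scd3 and Far2 0.62, Elovl3 and Mc5r 0.73, and Elovl3 and Scd3 1.92, the farthest pair. Among 13465 genes, the nearest to Elovl3 were Bglap3 (0.28), Car6 (0.31) and Slc35g1 (0.31). Those nearest to Scd1 were Klb (0.28), Pparg (0.29) and Pcx (0.29), and those nearest to Scd3 were Cyp3a57 (0.34), Hepacam2 (0.38) and H2-DMb2 (0.39). Far2 was nearest to Abcc3 (0.24), Bcl2l15 (0.26) and Pnpla5 (0.27), Awat1 to Il1f5, Slc2a1 and Stambpl1 (0.24 each), and Awat2 to Defb6 (0.37), Slc46a2 (0.39) and Dgat2l6 (0.41). Soat1 was nearest to Hace1 (0.11), Tra2b (0.12) and Utp18 (0.13), Mgst1 to Ormdl3 (0.12), Adipor2 (0.12) and Eif4ebp1 (0.16), Plin2 to Hsdl2 (0.11), Rad51d (0.13) and Abcb9 (0.14), and Mc5r to Cage1 (0.29), Zfp966 (0.30) and Tmprss11f (0.32). A gene that varied little over the libraries is near to many others by this measure: Soat1, Mgst1 and Plin2 varied by 0.396 to 0.408 about their own mean, against 1.12 for Elovl3 and 1.30 for Scd3.

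Other genes of the same pathways were read from lists. The counts of each list stand beside the shares of all tested genes that edgeR called. These were 35.2% in IL-6 KO against C57BL/6 (19.2% higher, 16.0% lower) and 37.3% in IL-6 KO against BALB/c (19.9% higher, 17.4% lower). In BALB/c against C57BL/6 the share was 3.41% (1.63% higher, 1.78% lower). Of 28 tested genes of fatty acid synthesis, elongation and desaturation other than the 10, 6 were higher and 4 lower in IL-6 KO than in C57BL/6 skin, with a median of -0.01. The elongase Elovl7 was higher (93.7 ± 6.56 CPM in IL-6 KO and 35.5 ± 13.2 CPM in C57BL/6, 1.40 ± 0.239, adjusted p = 0.00236), as was Hacd3, a dehydratase of the elongation cycle (0.68 ± 0.113, 0.00206). Acacb, an acetyl-CoA carboxylase of muscle and fat, was lower (42.0 ± 14.5 CPM in IL-6 KO and 195 ± 32.1 CPM in C57BL/6, -2.21 ± 0.279, 0.000687). Against BALB/c, 6 were higher and 7 lower, with a median of -0.39. These included Acsl3, a fatty acyl-CoA synthetase, which was higher (1.79 ± 0.286, 0.00165), and Acacb, which was lower (-2.46 ± 0.281, 0.000456). In BALB/c against C57BL/6, 1 of the 28 was called: Hsd17b12, a reductase of the elongation cycle, was higher (137 ± 33.3 CPM in BALB/c and 78.5 ± 9.81 CPM in C57BL/6, 0.80 ± 0.183, adjusted p = 0.0481).

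Of 11 tested genes of ester synthesis, 3 were higher and 3 lower in IL-6 KO than in C57BL/6 skin (35.2% of all tested genes), with a median of -0.33. Against BALB/c 2 were higher and 5 lower (37.3% of all tested genes), with a median of -0.44. Far1, the other fatty acyl-CoA reductase, was higher in IL-6 KO than in C57BL/6 skin (52.4 ± 2.97 CPM in IL-6 KO and 27.1 ± 6.10 CPM in C57BL/6, 0.95 ± 0.158, adjusted p = 0.00207), where Far2 was not called. Gpam, which starts triglyceride synthesis, was lower in IL-6 KO than in C57BL/6 (-1.41 ± 0.214, 0.00140) and BALB/c (-1.46 ± 0.214, 0.00113). Lpin3, a phosphatidate phosphatase, was higher against C57BL/6 (2.04 ± 0.321, 0.00162) and BALB/c (2.15 ± 0.323, 0.00126). Between BALB/c and C57BL/6, edgeR called 0 of the 11 (1 higher and 0 lower at an unadjusted p under 0.05, and 1 higher and 0 lower by DESeq2), with a median of 0.18.

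Of 17 tested genes of lipid droplets and lipolysis, 0 were higher and 11 lower in IL-6 KO than in BALB/c skin, with a median of -1.59. Of all tested genes, 19.9% were called higher and 17.4% lower in this comparison. At an unadjusted p under 0.05 edgeR had 0 higher and 13 lower, and DESeq2 called 0 higher and 12 lower. Against C57BL/6, 0 were higher and 4 lower, with a median of -0.81 (1 higher and 5 lower unadjusted, 0 higher and 6 lower by DESeq2). Fitm1, which acts in droplet formation in muscle and fat, was lower against C57BL/6 (14.8 ± 0.496 CPM in IL-6 KO and 79.2 ± 26.5 CPM in C57BL/6, -2.42 ± 0.338, adjusted p = 0.00103) and BALB/c (-2.30 ± 0.337, 0.00116). Of these 18 listed genes, 5 stand in the adipocyte or sebocyte marker lists too. The adipocyte and muscle marker sums given above were lower in IL-6 KO skin as well, and their part in these counts was not tested. Of the 17, edgeR called 0 in BALB/c against C57BL/6 (4 higher and 0 lower unadjusted, 3 higher and 0 lower by DESeq2), with a median of 0.73. Several of these genes were far higher in BALB/c replicate 1 than in replicates 2 and 3. Plin1 had 558, 113 and 101 CPM there in that order, Cidec 814, 221 and 232 CPM, and Cidea 240, 20.6 and 40.5 CPM. Fitm1 went the other way (41.3, 90.9 and 85.8 CPM). In IL-6 KO replicate 2, Plin1 had 114 CPM and Cidec 210 CPM. The medians were not computed without BALB/c replicate 1.

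Of 12 regulators and duct keratins, 2 were higher and 4 lower in IL-6 KO than in C57BL/6 skin (35.2% of all tested genes), with a median of -0.35. Against BALB/c 3 were higher and 3 lower (37.3% of all tested genes), with a median of -0.23. Prdm1, a repressor made in sebaceous and other epidermal lineages, was higher in IL-6 KO (86.2 ± 20.0 CPM) than in C57BL/6 (28.9 ± 11.1 CPM, 1.57 ± 0.273, adjusted p = 0.00255) and BALB/c (34.0 ± 1.97 CPM, 1.34 ± 0.271, 0.00500). Sox9, a follicle stem cell factor, was higher against BALB/c (1.54 ± 0.344, 0.00787), and Rxra, a partner of nuclear receptors, was lower against C57BL/6 (-0.56 ± 0.151, 0.0182). In BALB/c against C57BL/6, 0 of the 12 were called in either direction by edgeR, at an unadjusted p under 0.05 or by DESeq2, with a median of -0.08.

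Of 10 sebocyte markers other than the 10 genes, 9 stand in the lists above. In IL-6 KO against BALB/c skin, 0 of these markers were higher and 5 lower, beside 19.9% and 17.4% of all tested genes. Fa2h, a fatty acid hydroxylase, was lower (44.0 ± 21.9 CPM in IL-6 KO and 123 ± 17.7 CPM in BALB/c, -1.47 ± 0.309, adjusted p = 0.00596), as was Ldhb, a lactate dehydrogenase (-1.84 ± 0.166, 0.000234). Unadjusted, 0 were higher and 6 lower, as by DESeq2, beside 22.8% of all genes lower unadjusted and 19.1% by DESeq2. The markers summed to 2867, 988 and 1154 CPM in BALB/c replicates 1 to 3. Of the called genes, Cidea had 240, 20.6 and 40.5 CPM there, and Fa2h 136, 103 and 129 CPM. The part of fat content in these counts was not tested. Against C57BL/6, 0 of these markers were higher and 1, Ldhb, was lower (-1.30 ± 0.165, 0.000687), where 35.2% of all tested genes were called. Unadjusted and by DESeq2, 0 were higher and 2 lower, beside 21.6% and 17.4% of all genes lower. In BALB/c against C57BL/6 edgeR called 0 of these 10, beside 4 higher and 1 lower unadjusted and 3 higher and 1 lower by DESeq2, where DESeq2 called 3.47% of all genes higher and 3.70% lower. The summed level of these markers was 692 to 1298 CPM in IL-6 KO, 988 to 2867 CPM in BALB/c and 998 to 1556 CPM in C57BL/6. Of 5 microsomal glutathione transferase relatives of Mgst1, edgeR called 1, Ltc4s, which makes leukotriene C, lower in IL-6 KO than in BALB/c skin (-1.58 ± 0.293, 0.00340), and 0 in the other comparisons; in BALB/c against C57BL/6 2 were higher and 0 lower unadjusted and 1 was higher and 0 lower by DESeq2, and in IL-6 KO against C57BL/6 1 was higher and 1 lower unadjusted and 0 by DESeq2. Of the melanocortin peptides and accessory proteins, 2 of 7 were tested, and Atrn, a membrane protein of the agouti pathway, was higher in IL-6 KO than in C57BL/6 skin (0.57 ± 0.179, 0.0338); Asip was not analysed here. Macrophage markers summed to 645 to 1832 CPM in IL-6 KO, 803 to 1321 CPM in BALB/c and 642 to 1437 CPM in C57BL/6, and edgeR called 0 of the 8 in each comparison (at most 1 unadjusted or by DESeq2). Of the 8 epidermis markers, Ivl and Flg were higher in IL-6 KO than in C57BL/6 skin, and Ivl was higher and Lor lower than in BALB/c.

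C57BL/6 replicate 3 differed from the other libraries in how the reads of these genes fell on exons. There, reads across exon-exon junctions made up 5.22% of Scd3 exon reads, against 22.8% and 20.3% in replicates 1 and 2. For Far2 the share was 12.3% there, against 34.4% and 33.2%, for Soat1 12.4% against 24.2% and 26.6%, for Elovl3 12.2% against 23.5% and 26.8%, and for Awat2 9.09% (1 of 11 reads) against 56.2% and 55.2%. For Mgst1 and Plin2 it was 46.3% and 55.4%, within the range of the other libraries. Of the 9 genes with reads in every library, 7 had their lowest junction share in C57BL/6 replicate 3, as did 4 of 10 other sebocyte markers. So did 16.1% of the 8619 genes with at least 50 reads in each library. The 9 genes and the markers were not held to that minimum, so the sets are not alike. Elovl3, Scd3, Awat1 and Awat2 had as few as 49, 37, 17 and 10 reads in a library. Over all genes, junction reads were 46.9% of exon reads in that library, against 47.1% and 46.8% in C57BL/6 replicates 1 and 2, and the median share of the 8619 genes was 38.9%, against 40.7% and 40.8%. The library had the lowest CPM of C57BL/6 in Elovl3, Scd3, Awat2, Soat1, Far2 and Mc5r, and the highest in Scd1 and Plin2. What sets these shares was not tested. Without C57BL/6 replicate 3, the log2 fold change of Scd3 in BALB/c against C57BL/6 was 1.37 (adjusted p = 0.0836) and that of Far2 1.19 (adjusted p = 0.292).

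**Figure D5:**
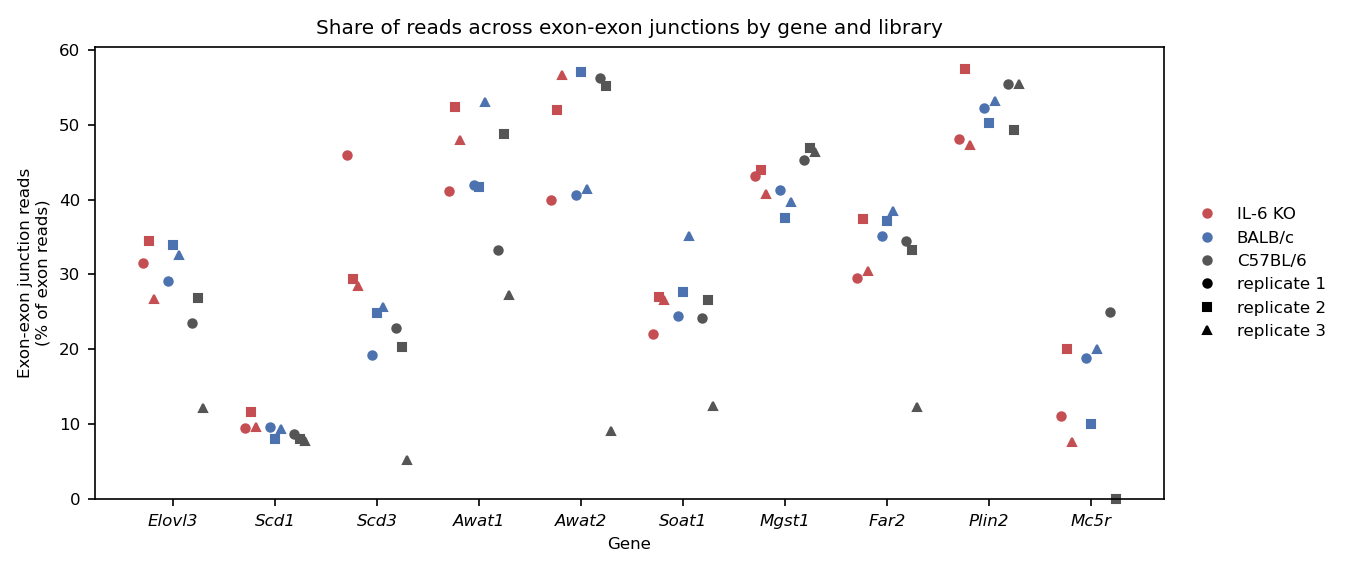
Reads across exon-exon junctions as a percent of exon reads (y axis) for each of the 10 genes and each library, with IL-6 KO, BALB/c and C57BL/6 libraries from left to right within a gene; symbols give the replicate. C57BL/6 replicate 3 lies apart below the others for Elovl3, Scd3, Awat2, Soat1 and Far2 and among them for Mgst1 and Plin2; Mc5r rests on 20 reads or fewer per library and has no value in C57BL/6 replicate 3.

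Within the IL-6 KO libraries, replicate 2 had the highest level of Scd1, Scd3, Far2, Awat1, Plin2 and Mgst1. It had 2.52 times the Scd1, 2.42 times the Far2, 2.33 times the Awat1 and 1.65 times the Scd3 level of the mean of replicates 1 and 3. The epidermal keratin genes Krt1 and Krt10 were 3.73 and 4.27 times that mean, and the hair shaft markers were below it as given above. For Scd3, Far2 and Awat1, replicate 1 lay farther below replicate 3 than replicate 2 lay above it on a ratio scale. Adipocyte markers summed to 4287 CPM in replicate 2, against 2205 and 1479 CPM in replicates 1 and 3, and macrophage markers to 1832 CPM, against 645 and 911 CPM; their part in these levels was not tested. Without replicate 2, Awat1 in IL-6 KO against C57BL/6 was -0.21 in place of 0.32 ± 0.412.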

How the data were processed

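The deposited tables hold, per gene, counts of reads in exons, introns and across exon-exon junctions, per the file headers, mapped to GRCm38 (per the submitters' processing notes). The aligner is not given in the sources used here, nor is the use of strand. Libraries were made from total RNA with a TruSeq kit, per the labels' protocols. The file of C57BL/6 replicate 1 holds 3 stacked tables, of which the first was used; the others equal the tables of replicates 2 and 3. Total exon read counts were analysed with edgeR 4.0.16 (R 4.3.3): filterByExpr (minimum count 10, minimum total 15), TMM scaling, and quasi-likelihood F tests on all 9 libraries with group as the only term. P-values were Benjamini-Hochberg adjusted over all 14415 genes with a threshold of 0.05. The SE is the log2 fold change divided by the square root of F. CPM are TMM-scaled, and RPKM divide them by exon length. Likeness used log2 CPM (prior count 2) of genes averaging at least 1 CPM, without predicted genes and pseudogenes. Copies were sought with blastn 2.17.0 in GENCODE transcripts (at least 90% identity over 200 bases). Scripts were tested on simulated data.

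The 10 genes and the lists were chosen with earlier results of these data known. Named from each list are up to 3 called genes by p-value per comparison (the text gives a part of them, and Scd2 in all groups and Far1 among them), and for each of the 10 genes its 3 nearest genes. Alternatives were 18 per comparison: RLE size factors, library size only, no filter, a robust variance model, the compared groups only, DESeq2 1.42.0, unique exon reads, a replicate block, totals without muscle, hair shaft and keratin-associated genes, and leaving out each of 9 libraries.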

Additional observations from a re-analysis of the deposited data

How the results depend on the processing

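Of 540 alternative values of the 10 genes, 490 kept direction and side of the threshold, 29 lost and 9 gained a call, and 12 changed sign. In BALB/c against C57BL/6, 2 of the 10 genes were called; DESeq2 called 4, the replicate block 1, and leaving out 1 library gave 0 to 3. In IL-6 KO against C57BL/6, 3 were called and leave-one-out gave 1 to 3; in IL-6 KO against BALB/c, 3 were called and leave-one-out gave 1 to 4. Sign changes were all in differences that were not called: in BALB/c against C57BL/6 without BALB/c replicate 1, Scd1 (-0.71; leave-one-out up to 0.85) and Mgst1 (-0.13; up to 0.49); in IL-6 KO against C57BL/6, Awat1 without IL-6 KO replicate 2 (-0.21, others up to 0.66), Awat2 without IL-6 KO replicate 1 (0.05) or C57BL/6 replicate 2 (0.47, others down to -0.63), Far2 with library size only (0.09) and without IL-6 KO replicate 1 (0.33) or C57BL/6 replicate 1 (0.02) or 2 (0.12, others down to -0.61), and Plin2 without IL-6 KO replicate 2 (-0.10) or C57BL/6 replicate 2 (-0.00, others up to 0.17); in IL-6 KO against BALB/c, Awat1 without IL-6 KO replicate 1 (0.14, others down to -0.73). The cause was not tested.

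Over all genes, 491 were called in BALB/c against C57BL/6, beside 1033 by DESeq2, 255 with the replicate block and 167 to 977 without 1 library. In IL-6 KO against C57BL/6, 5068 were called, and 3238 to 6805 without 1 library; in IL-6 KO against BALB/c, 5370, and 3310 to 7044. Scaling by library size only moved the median of all genes in IL-6 KO against C57BL/6 to 0.152, beside 0.0114 with TMM, and the share of calls that were higher to 67.7%, beside 54.6%; in BALB/c against C57BL/6 that share was 58.6%, beside 47.9%. The replicate numbers did not pair the libraries: deviations from group means correlated between -0.21 and 0.06 for equal numbers. With the replicate block, Scd3 in BALB/c against C57BL/6 and Soat1 in IL-6 KO against C57BL/6 were no longer called. Mc5r, Awat1 and Awat2 rest on 84 reads or fewer in every library.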
